A study of Mus musculus with 10 samples.

Results

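The genes described here encode collagen chains, namely every gene whose array annotation symbol has the form Col, a number, a and a number, with the exception of Col4a1 and Col4a2, the chains of the main basement membrane collagen. Of the 18193 genes represented on the arrays, 40 met this rule. Affymetrix arrays had been hybridised with total RNA from 1 brain hemisphere of male mice, taken 24 h after middle cerebral artery occlusion (MCAO, which blocks a large brain artery and models stroke) or after sham surgery. Wild-type (WT) mice gave 2 sham and 3 MCAO arrays, and mice of the line called Hsp72Tg gave the same numbers, so 4 groups were compared. The Hsp72Tg line overexpresses Hsp72, the stress-inducible form of the heat shock protein Hsp70. The ischemic hemisphere was used after MCAO and the hemisphere on the operated side after sham surgery, and arrays are named here by group and number. The sources used here do not give the promoter or species of the transgene, or the strain and age of the mice. Each array is labelled as 1 sample, and where arrays do not stem from separate animals the p-values measure only the spread between these samples.

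Collagens are matrix proteins of which every molecule is wound from 3 chains, and the chain genes fall into structural classes. Fibrillar chains form the banded fibrils of connective tissue, FACIT chains (fibril-associated collagens with interrupted triple helices) sit on fibril surfaces, type VI chains form beaded filaments, and others form networks, span the cell membrane or lie in basement membranes. In the brain, fibrillar collagen lies mainly in the meninges and around larger vessels, where fibroblasts make it, and scar tissue after injury can hold more of it. In a bulk hemisphere sample, a change in the number of such cells and a change in RNA per cell cannot be told apart.

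The deposited values are log2 expression values, 1 per probe set (a set of short probes against 1 transcript), and each gene was read through its probe set with the highest mean. Array medians lay between 6.67 and 6.73, and every pair of arrays correlated over all genes at 0.977 to 0.997. As a check of tissue, the 8 neuron markers averaged between 12.04 and 12.49 in every array. Hspa1b, a gene for Hsp72, had mean values of 9.43 in WT sham, 12.47 in WT MCAO, 9.14 in Hsp72Tg sham and 13.04 in Hsp72Tg MCAO, so it was not higher in Hsp72Tg than in WT after sham surgery. Whether its probes read the transgene is not known here, so this gene does not check the genotype labels. A pair of arrays stood apart: Hsp72Tg MCAO 1 lay at -12.9 on the first principal component (sham arrays -23.7 to -20.7, the other MCAO arrays 11.7 to 32.3), and WT sham 1 had a Gabra6 value of 9.46 (a gene of cerebellar granule cells) against 4.15 to 4.49 elsewhere. For several named genes the value without such an array stands beside the result it moved.

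After MCAO, 2 of the 40 collagen genes rose over both genotypes, Col16a1 by 1.43-fold and Col5a3 by 1.82-fold, and no member fell. Here a gene passed at an adjusted p under 0.05 in limma, a linear model fitted over all genes. The share of members called was 5%, against 1.46% of all genes (1.06% called higher). At an unadjusted p under 0.05 there were 5 members (12.5%) against 19.1% of all genes. The median change of the 40 members was 0.03 on the log2 scale against -0.03 over all genes, and 22 members (55%) lay above 0 against 42.5% of all genes. The changes ran from -0.36 for Col26a1 to 0.87 for Col3a1. The family as a whole therefore showed a small median change, with 3 members (7.5%, against 3.28% of all genes) above a log2 change of 0.5, namely Col16a1, Col5a3 and Col3a1.

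Upstream sequences of these 3 genes are shown because they had the largest upward changes. Each is the 250 bases before the gene start in RefSeq (build GRCm38.p6), on the gene's own strand. They lie at chr4:130047590-130047839 on the plus strand for Col16a1, chr9:20815068-20815317 on the minus strand for Col5a3 and chr1:45311288-45311537 on the plus strand for Col3a1. Capitals mark matches to GGGCGG (the GC box, read as CCGCCC on the other strand), CCAAT or TATAAA.
Col16a1: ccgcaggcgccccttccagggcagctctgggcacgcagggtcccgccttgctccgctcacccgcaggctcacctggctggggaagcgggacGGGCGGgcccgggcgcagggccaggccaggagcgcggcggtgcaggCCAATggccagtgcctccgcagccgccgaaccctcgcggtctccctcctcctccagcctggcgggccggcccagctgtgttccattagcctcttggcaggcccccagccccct
Col5a3: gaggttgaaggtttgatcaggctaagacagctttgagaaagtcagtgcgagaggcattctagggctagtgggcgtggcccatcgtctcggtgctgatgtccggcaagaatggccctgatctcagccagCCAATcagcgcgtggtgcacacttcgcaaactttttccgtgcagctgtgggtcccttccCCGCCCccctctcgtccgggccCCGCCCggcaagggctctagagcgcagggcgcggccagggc
Col3a1: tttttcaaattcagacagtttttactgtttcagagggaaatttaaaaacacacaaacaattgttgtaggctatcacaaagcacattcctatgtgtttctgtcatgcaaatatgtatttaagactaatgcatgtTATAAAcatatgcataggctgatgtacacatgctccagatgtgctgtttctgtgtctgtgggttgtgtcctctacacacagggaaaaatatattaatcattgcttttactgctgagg
The Col16a1 stretch held a GC box 159 bases and a CCAAT box 113 bases before the start. The Col5a3 stretch held a CCAAT box at 122 bases and GC boxes at 63 and 41 bases. The Col3a1 stretch held a TATAAA match at 117 bases and neither of the others. The stretches also differed in base composition, with 75.6% G and C for Col16a1, 62.8% for Col5a3 and 35.2% for Col3a1.

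RefSeq held such a window for 31 of the 40 members, with a median of 58.4% G and C against 52.4% over all 32851 windows. Both strands were searched. The 31 members had 34 windows, and a member counted when any of its windows matched, while the share over all is per window. GGGCGG occurred in 19 of the 31 members (61.3%) against 32.7% of all windows, CCAAT in 11 (35.5%) against 33.8%, and TATAAA in 5 (16.1%) against 12.4%. The heat shock element GAANNTTC was present in 1 member (Col4a5) against 6.69% of windows, the AP-1 motif TGANTCA in 1 (Col6a1) against 6.75%, and the STAT motif TTCNNNGAA in 1 (Col6a5) against 7.02%. The core of the hypoxia response element, ACGTG, occurred in 4 members (Col11a2, Col1a2, Col4a4 and Col5a1) against 16.6%. Neither Col16a1, Col5a3 nor Col3a1 held a match to these last 4 motifs in this window. A match is a string of letters and says nothing here of binding.

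Among the FACIT chains, Col16a1 encodes the chain of type XVI collagen, which is found beside fibrils and near basement membranes. Its log2 values (from the only probe set of the gene) were 8.20 and 8.25 in WT sham and 8.72, 8.75 and 8.78 in WT MCAO. In Hsp72Tg they were 8.02 and 8.01 after sham surgery and 8.45, 8.39 and 8.72 after MCAO. All 6 MCAO arrays lay above all 4 sham arrays, and Hsp72Tg MCAO 3 lay just below the WT MCAO range. The WT means were 8.23 ± 0.04 (SD, n = 2) for sham and 8.75 ± 0.03 (n = 3) for MCAO, and the Hsp72Tg means 8.01 ± 0.0025 (n = 2) and 8.52 ± 0.17 (n = 3). The change over both genotypes was 0.52 (SE 0.08, 95% interval 0.35 to 0.69, limma adjusted p = 0.0216). It was nearly the same in each genotype, 0.52 (SE 0.11) in WT and 0.51 (SE 0.11) in Hsp72Tg, with a difference between them of -0.01 (95% interval -0.35 to 0.32).

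Col5a3, a fibrillar chain, encodes a minor chain of type V collagen, which takes part in starting and sizing fibrils. Its log2 values were 6.89 and 6.61 in WT sham and 8.12, 7.36 and 7.49 in WT MCAO. In Hsp72Tg they were 6.68 and 6.71 after sham surgery and 7.57, 7.36 and 7.64 after MCAO. All 6 MCAO arrays again lay above the 4 sham arrays, and the highest value came from WT MCAO 1. The SD within the WT groups was 0.20 for sham (n = 2) and 0.41 for MCAO (n = 3), and within the Hsp72Tg groups 0.02 and 0.15. The change was 0.87 (SE 0.14, 95% interval 0.54 to 1.19, limma adjusted p = 0.0287) over both genotypes, 0.91 (SE 0.20) in WT and 0.83 (SE 0.20) in Hsp72Tg. A dimmer probe set of Col5a3 read between 4.66 and 5.10 in all arrays and had a change of 0.08 (adjusted p = 0.680), so the call rests on the brighter of its probe sets. Groups without overlap occurred for these 2 members (5%), both higher, against 6.6% of all genes, 3.19% of them higher.

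Col3a1, the chain of type III collagen that forms fibrils with type I in vessel walls and early scars, had the largest estimate and the widest spread. Its log2 values were 5.67 and 6.27 in WT sham and 6.80, 7.03 and 7.39 in WT MCAO, without overlap. In Hsp72Tg they were 6.01 and 6.39 after sham surgery and 6.21, 6.82 and 7.52 after MCAO, where Hsp72Tg MCAO 1 lay between the sham arrays. The change over both genotypes was 0.87 (SE 0.24, 95% interval 0.34 to 1.41) or 1.83-fold, with a limma adjusted p of 0.0985. It was 1.10 (SE 0.34) in WT (0.80 without WT sham 1) and 0.65 (SE 0.34) in Hsp72Tg (0.97 without Hsp72Tg MCAO 1). Without Hsp72Tg MCAO 1 the change over both genotypes was 1.03 (adjusted p = 0.00761). A dimmer probe set of Col3a1 read between 3.92 and 4.25 in every array, with a change of 0.06.

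**Figure D1:**
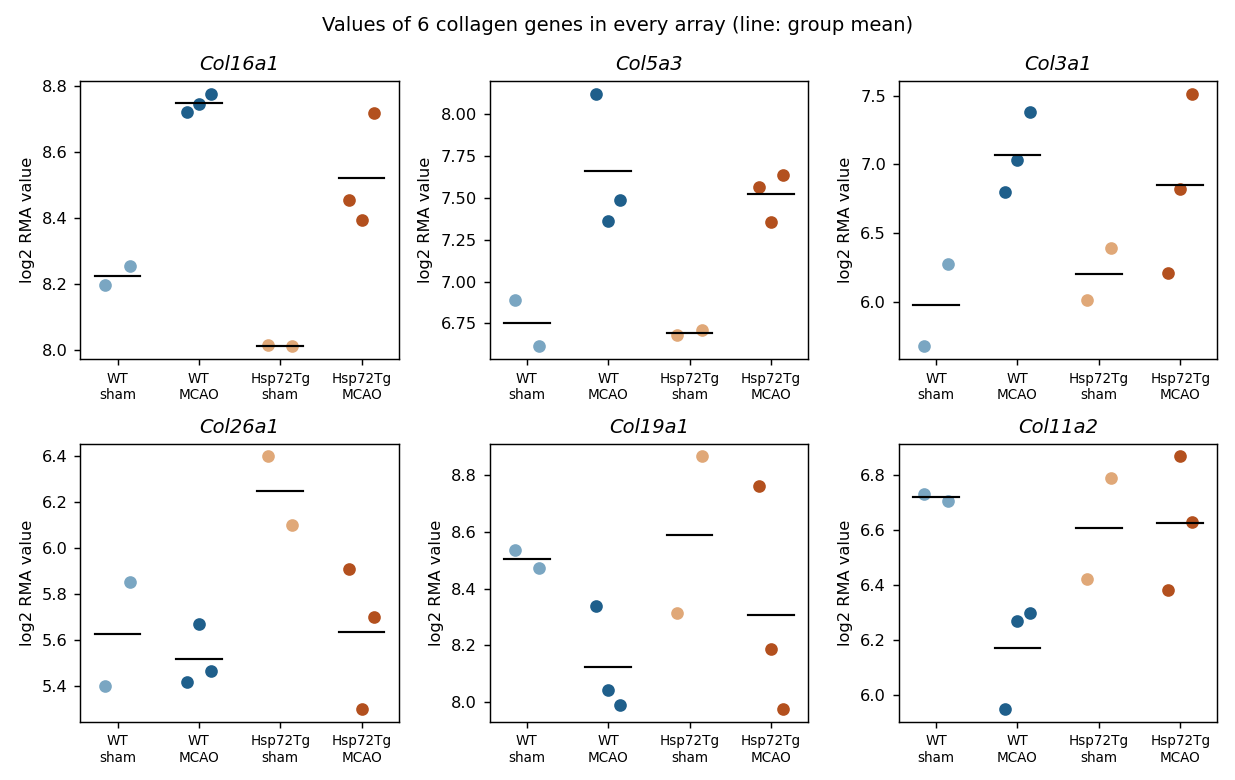
Log2 expression values (vertical axis) of 6 collagen genes in each of the 10 arrays, grouped by genotype and surgery on the horizontal axis; points are arrays and lines are group means. For Col16a1 and Col5a3 all 6 MCAO arrays lie above all 4 sham arrays, while for Col3a1 the lowest Hsp72Tg MCAO array, at 6.21, lies within the sham range.

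The members with the largest downward estimates were Col26a1, Col19a1 and Col11a2, and none of them passed. Col26a1, whose product is a small collagen-related protein first described in testis and ovary, had log2 values of 5.40 and 5.85 in WT sham and 5.42, 5.67 and 5.46 in WT MCAO. In Hsp72Tg they were 6.40 and 6.10 after sham surgery and 5.91, 5.30 and 5.70 after MCAO. The MCAO arrays of Hsp72Tg thus all lay below the sham arrays of that genotype, while those of WT lay within the WT sham range. The change was -0.36 (SE 0.14, 95% interval -0.67 to -0.05, limma adjusted p = 0.197) over both genotypes, -0.11 (SE 0.20) in WT and -0.61 (SE 0.20) in Hsp72Tg. The difference between the genotypes' changes was -0.51 (95% interval -1.13 to 0.11). Without WT sham 1 the WT change of Col26a1 was -0.33 and that difference -0.28. A dimmer probe set of Col26a1 had a change of 0.07.

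Col19a1, a FACIT chain that is made by some brain interneurons, had log2 values of 8.54 and 8.47 in WT sham and 8.34, 8.04 and 7.99 in WT MCAO. In Hsp72Tg they were 8.31 and 8.87 after sham surgery and 8.76, 8.19 and 7.98 after MCAO. The WT groups did not overlap, and in Hsp72Tg only arrays 2 and 3 lay below both sham arrays. The change over both genotypes was -0.33 (SE 0.16, 95% interval -0.70 to 0.04, limma adjusted p = 0.305). Without Hsp72Tg sham 2 it was -0.19 (adjusted p = 0.590), and without Hsp72Tg MCAO 1 it was -0.44 and passed (adjusted p = 0.0475). All 3 probe sets of the gene gave a negative change, from -0.50 to -0.11.

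Col11a2 is a fibrillar chain of type XI collagen, known from cartilage. Its log2 values were 6.73 and 6.71 in WT sham and 5.95, 6.27 and 6.30 in WT MCAO. In Hsp72Tg they were 6.42 and 6.79 after sham surgery and 6.38, 6.87 and 6.63 after MCAO. The WT groups were apart and the Hsp72Tg groups overlapped, with changes of -0.55 (SE 0.17) and 0.02 (SE 0.17). Over both genotypes the change was -0.26 (SE 0.12, limma adjusted p = 0.265).

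By structural class, the 11 fibrillar chains had a median change of 0.22 on the log2 scale, with 8 above 0 and 3 below and 1 that passed (Col5a3). Beside Col3a1, the next upward estimates in this class were 0.36 for Col27a1 (SE 0.11, adjusted p = 0.131), 0.29 for Col5a2 (adjusted p = 0.421) and 0.28 for Col1a1 (SE 0.15, adjusted p = 0.327), and Col2a1 had 0.22. Col1a2, the partner of Col1a1 in type I collagen, had 0.08 and Col5a1, the main chain of type V, had 0.09. Col11a1 lay at 0.00 and Col24a1 at -0.19. With the probe sets used, the other chains of the heterotrimers that hold Col5a3 and Col1a1 thus had smaller estimates than these genes. This order depended on the probe set. The other probe set of Col1a1 had -0.0048 and that of Col5a3 had 0.08, while probe sets of Col1a2 reached 0.15 and those of Col5a1 0.24. The differences between genes were not tested.

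The 9 FACIT chains measured had a median of -0.04, with Col16a1 the only one that passed. Apart from Col16a1 and Col19a1 they ran from -0.19 for Col9a2 to 0.06 for Col9a3, with Col14a1 at -0.14, Col12a1 at -0.04, Col20a1 at -0.05, Col9a1 at 0.01 and Col22a1 at 0.02. The 4 minor type IV chains, which replace the excluded chains in some basement membranes such as that of the kidney filter, all had estimates below 0. They ran from -0.10 for Col4a5 to -0.03 for Col4a6, with Col4a3 at -0.07 and Col4a4 at -0.06. The excluded core chains rose on the same arrays, Col4a1 by 1.68 (SE 0.28, adjusted p = 0.0287) and Col4a2 by 1.21 (SE 0.21, adjusted p = 0.0320).

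Among the 5 type VI chains measured the median was 0.07 and none passed. Col6a3, the long chain needed for the filament, had 0.20 (SE 0.12, adjusted p = 0.390), Col6a2 had 0.06, Col6a5 had 0.07 and Col6a4 had -0.22. Col6a1, the member with the highest mean signal, had log2 values of 9.49 and 9.60 in WT sham and 9.01, 9.94 and 9.41 in WT MCAO. In Hsp72Tg it had 9.15 and 9.13 after sham surgery and 9.44, 9.37 and 9.39 after MCAO. The WT MCAO arrays lay on both sides of the sham arrays and those of Hsp72Tg lay above their own sham arrays. The change was 0.08 (SE 0.15, adjusted p = 0.802), and without WT MCAO 2 it was -0.04.

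In the remaining classes no member passed. The multiplexins, which lie in vessel basement membranes, were Col18a1, the source of the fragment endostatin, with 0.35 (SE 0.17, adjusted p = 0.289), and Col15a1 with -0.12. Both probe sets of Col18a1 gave a positive change, 0.35 and 0.41. The short-chain network chains were Col8a1 at 0.10, Col10a1 at 0.11 and Col8a2 at -0.12. The transmembrane chains were Col13a1 at 0.07, Col17a1 at 0.05, Col23a1 at -0.11 and Col25a1, found in amyloid plaques, at -0.17. Col7a1, the chain of the anchoring fibrils of skin, had 0.07.

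**Figure D2:**
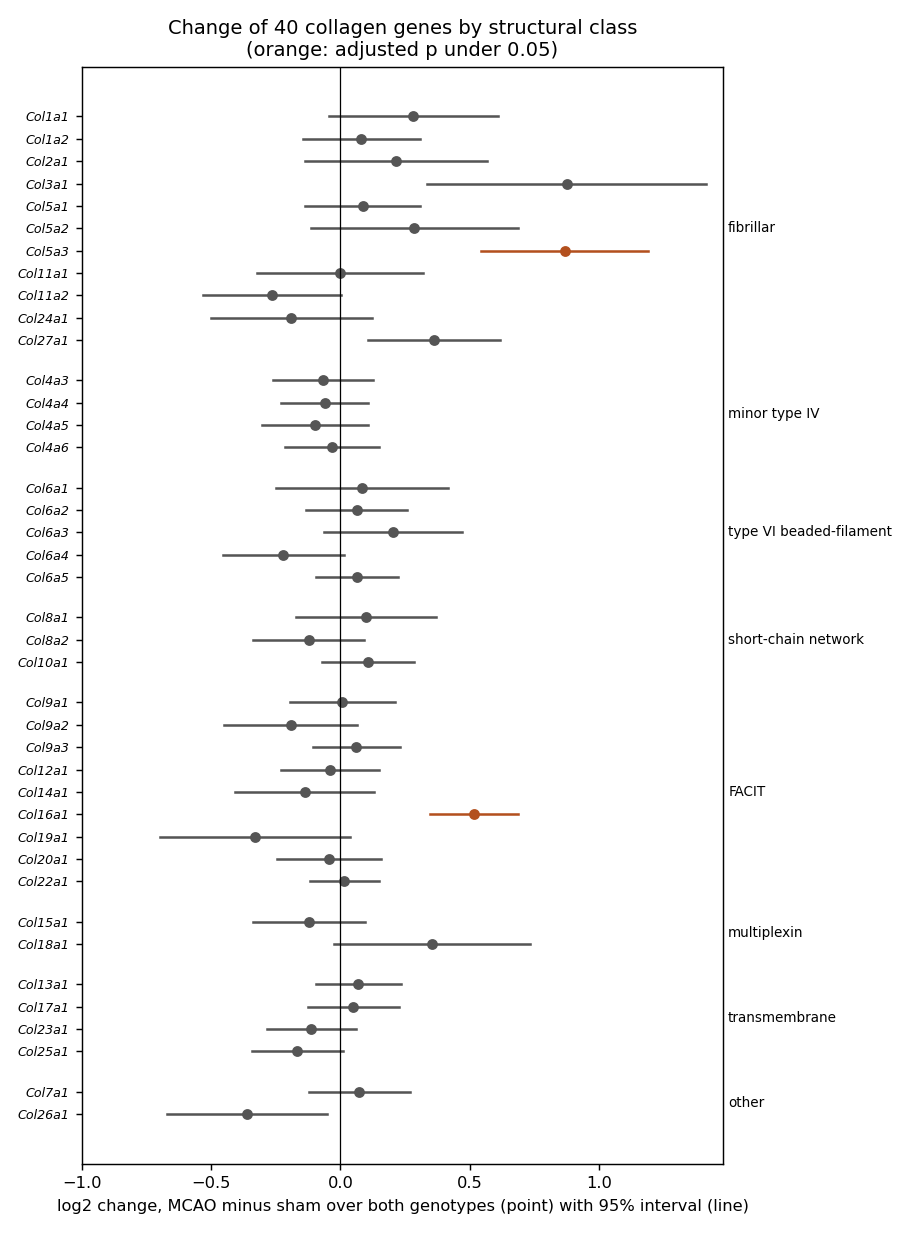
Log2 change from sham to MCAO over both genotypes (horizontal axis, point) with its 95% interval (line) for the 40 collagen genes, ordered by structural class. Col5a3 and Col16a1, in orange, passed at an adjusted p under 0.05; Col3a1 has the largest estimate, 0.87, and a wide interval of 0.34 to 1.41.

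Signal set a limit for some members. All 10 values of Col4a4, Col8a2, Col24a1, Col6a5 and Col17a1 lay below the lower quartile of their array, so for these 5 genes little signal stood behind the change. Col10a1 was below it in 6 arrays and Col4a5 in 1, and the other 33 members in none. No background flags were used here, so a low value shows only a dim probe set. Of the 26 members with more than 1 probe set, 13 had changes of mixed sign across their probe sets. Fits to the other probe sets moved the estimate most for Col3a1 and Col5a3, as given above.

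Several members are neighbours on their chromosome in RefSeq (GRCm38.p6), which allows their changes to be set side by side. Col3a1 (0.87) lies next to Col5a2 (0.29), and Col9a1 (0.01) next to Col19a1 (-0.33). Col6a2 (0.06) lies next to Col6a1 (0.08) and Col6a5 (0.07) next to Col6a4 (-0.22). The head-to-head type IV pairs were Col4a4 (-0.06) with Col4a3 (-0.07) and Col4a6 (-0.03) with Col4a5 (-0.10). None of these members passed, and differences between neighbours were not tested.

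In the single MCAO arrays, the number of members above all 4 sham arrays was 11, 13 and 14 in WT MCAO 1 to 3 and 3, 10 and 19 in Hsp72Tg MCAO 1 to 3. These were 27.5%, 32.5%, 35%, 7.5%, 25% and 47.5% of the 40. Over all genes the shares were 27.2%, 19.5%, 22.6%, 16.8%, 23.5% and 26.2% in the same order. The number of members below all sham arrays was 13, 6, 4, 8, 15 and 6, or 32.5%, 15%, 10%, 20%, 37.5% and 15% of the 40. Over all genes the shares below were 29.3%, 28.1%, 25.8%, 22.5%, 37.3% and 30.1%. The array Hsp72Tg MCAO 1 had the fewest high members and also the lowest such share over all genes (16.8%). Hsp72Tg MCAO 3 had the most high members.

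**Figure D3:**
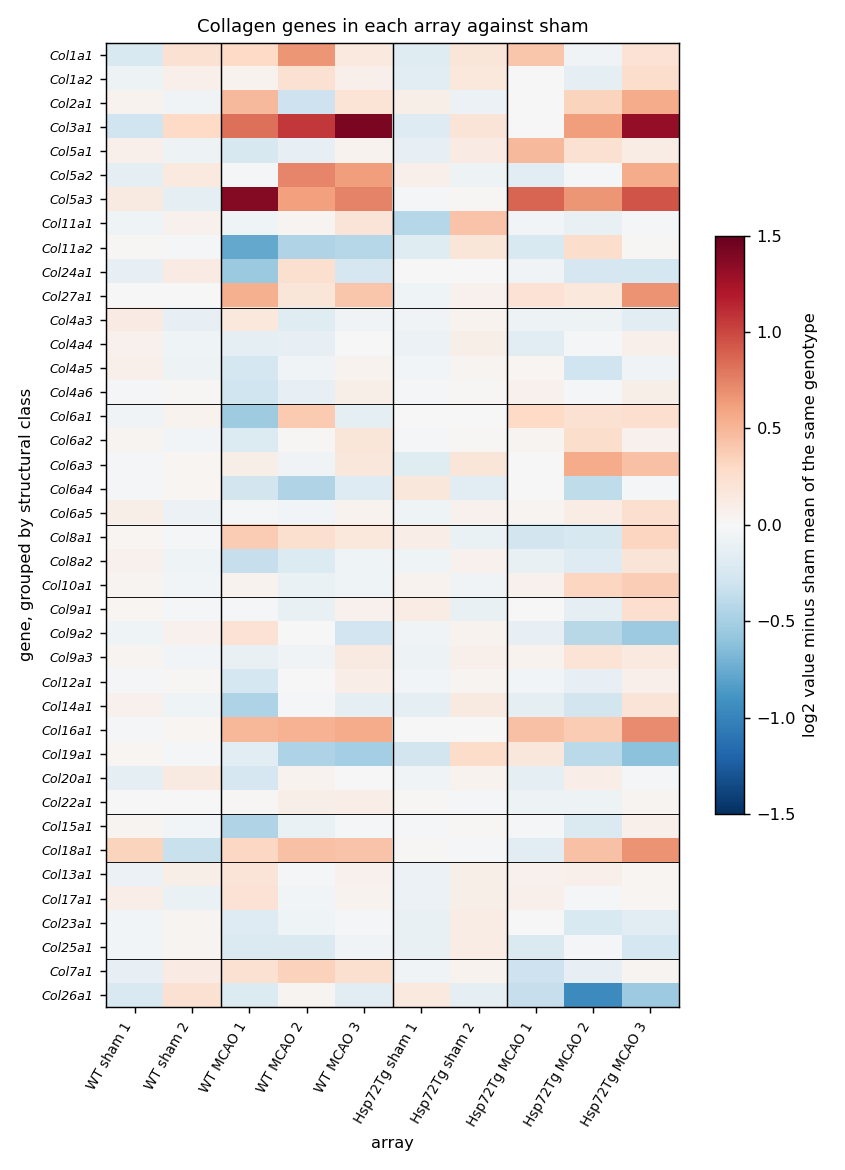
Log2 value of each of the 40 collagen genes (rows, grouped by class with lines between classes) in each array (columns) minus the sham mean of the same genotype; red is higher and blue lower, on a scale from -1.5 to 1.5. Col5a3 and Col16a1 are red in all 6 MCAO arrays, and Col3a1 is near white in Hsp72Tg MCAO 1.

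Within WT alone, none of the 40 members passed, against 0.055% of all genes. The estimates nearest to passing were Col16a1 (limma adjusted p = 0.145), Col5a3 (0.159), Col11a2 (0.281) and Col3a1 (0.282). An unadjusted p under 0.05 was reached by 5 members (12.5%, against 10.2% of all genes), the 4 just named and Col27a1 with 0.37. MCAO and sham arrays did not overlap for 11 members (27.5%, against 39% of all genes). The 7 higher members were Col16a1, Col5a3, Col3a1, Col27a1, Col22a1, Col7a1 and Col8a1 (17.5%, against 16.4% of all genes), and the 4 lower ones Col11a2, Col19a1, Col25a1 and Col6a4 (10%, against 22.5%). In a fit to the 5 WT arrays alone, Col11a2, Col16a1 and Col3a1 passed, against 5.25% of all genes. With limma's arrayWeights, which give arrays of large spread less weight, these and Col5a3 passed, against 7.46% of all genes. Col16a1 passed without Hsp72Tg MCAO 1 (adjusted p = 0.0379, against 2.54% of all genes called) and without Hsp72Tg MCAO 3 (adjusted p = 0.0364, against 0.665% of all genes called), since the other arrays feed the estimate of the spread.

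Within Hsp72Tg alone, none of the members passed either, against 0.022% of all genes. The smallest adjusted p values were 0.322 for Col16a1 and Col5a3 and 0.340 for Col26a1. These were also the 3 members (7.5%, against 12% of all genes) with an unadjusted p under 0.05. The arrays did not overlap for 10 members (25%, against 21.9% of all genes). The 6 higher members were Col16a1, Col5a3, Col27a1, Col10a1, Col6a1 and Col6a2 (15%, against 9.05% of all genes), and the 4 lower ones Col26a1, Col9a2, Col24a1 and Col4a3 (10%, against 12.8%). Of the higher members, Col16a1, Col5a3 and Col27a1 were without overlap in each genotype. With the dimmer probe set of Col27a1 the Hsp72Tg arrays overlapped, at 6.90 and 7.04 after sham surgery and 6.87, 6.84 and 7.38 after MCAO. Its change over both genotypes was 0.11. Without Hsp72Tg MCAO 1, Col16a1 and Col26a1 passed in this genotype, against 6.49% of all genes. Without WT sham 1 as well, Col18a1 and Col26a1 passed, against 4.29% of all genes.

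The changes in WT and Hsp72Tg had the same sign for 28 of the 40 members, 13 higher and 15 lower in both, against 69.0% of all genes with the same sign. Over the 40 members the changes in the 2 genotypes, which share no array, had a Pearson r of 0.707 and a Spearman rho of 0.622, beside a Pearson r of 0.755 over all genes. Genes are not independent replicates, so these are descriptions.

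**Figure D4:**
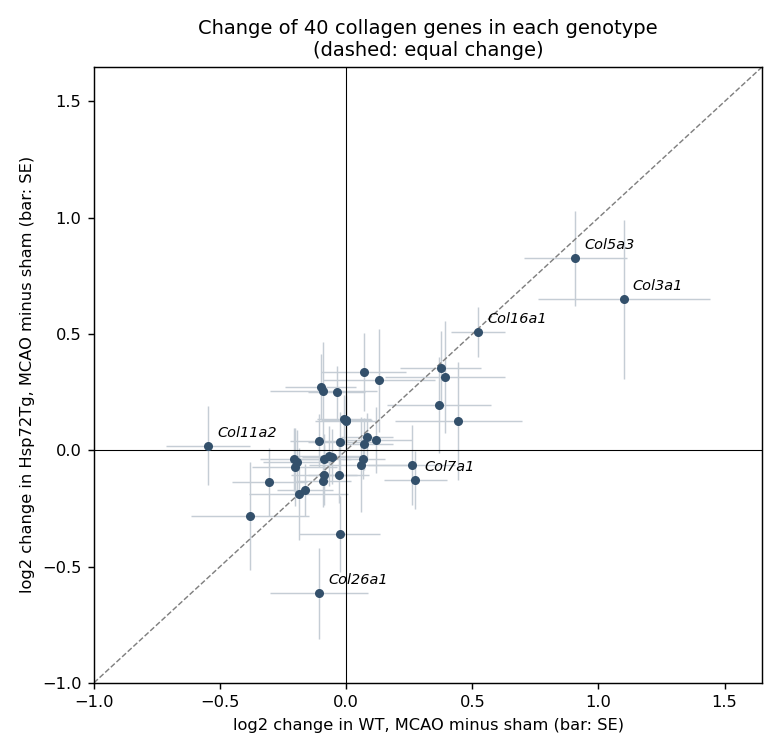
Log2 change from sham to MCAO in Hsp72Tg (vertical axis) against that in WT (horizontal axis) for the 40 collagen genes; bars are SE and the dashed line marks equal change. Col5a3, Col16a1 and Col3a1 lie at the upper right, while Col11a2, with -0.55 in WT and 0.02 in Hsp72Tg, and Col26a1, with -0.11 and -0.61, lie away from the line.

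The interaction, meaning the MCAO change in Hsp72Tg minus that in WT, passed for none of the members and for 0% of all genes. An unadjusted p under 0.05 was found for 2 members (5%, against 1.75% of all genes). Col11a2 had a difference of 0.57 (SE 0.24, 95% interval 0.04 to 1.10), with the values given above. Col7a1 had log2 values of 6.79 and 7.04 in WT sham, 7.14, 7.26 and 7.15 in WT MCAO, 7.08 and 7.18 in Hsp72Tg sham and 6.83, 7.01 and 7.18 in Hsp72Tg MCAO. Its WT MCAO arrays lay above the WT sham arrays and its Hsp72Tg groups overlapped, and the difference of changes was -0.40 (SE 0.17, 95% interval -0.79 to -0.01), or -0.28 without WT sham 1. The limma adjusted p was 1.0 for both.

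Among the MCAO arrays, no member differed between Hsp72Tg and WT after adjustment, nor did any gene (0%). An unadjusted p under 0.05 was found for 3 members (7.5%, against 2.68% of all genes), and the same 3 had arrays without overlap (7.44% of all genes). Col11a2 was higher in Hsp72Tg by 0.46 (SE 0.15, 95% interval 0.12 to 0.79), Col16a1 had -0.23 (SE 0.10, 95% interval -0.44 to -0.01) and Col23a1 had -0.25 (SE 0.10, 95% interval -0.47 to -0.03). Col23a1, a transmembrane chain, had log2 values of 6.95, 7.08 and 7.13 in WT MCAO and 6.93, 6.71 and 6.78 in Hsp72Tg MCAO, and of 7.10 and 7.19 in WT sham and 6.84 and 7.05 in Hsp72Tg sham. Another probe set of Col23a1 had a difference of -0.53 after MCAO, with 6.75, 6.77 and 6.66 in WT and 6.42, 6.18 and 5.98 in Hsp72Tg. After sham surgery it read 6.61 and 6.64 in WT and 6.51 and 6.52 in Hsp72Tg. In the third probe set of Col23a1 the MCAO arrays did not overlap, with 6.13, 6.31 and 5.97 in WT and 5.57, 5.84 and 5.69 in Hsp72Tg. Its sham arrays overlapped, with 5.97 and 5.97 in WT and 5.88 and 5.99 in Hsp72Tg. With the probe sets used, the Hsp72Tg arrays of Col23a1 and Col16a1 lay below the WT arrays after sham surgery as well as after MCAO. The adjusted p was 1.0 for each.

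Among the sham arrays, again no member and no gene (0%) passed. With 2 arrays a group, 15 members had no overlap (37.5%, against 27% of all genes), of which 11 were lower in Hsp72Tg (27.5%, against 14.2% of all genes) and 4 higher (10%, against 12.8%). Only 13 of the 40 members (32.5%) had a difference above 0, against 48.2% of all genes. Col26a1 had the smallest p, with values of 6.40 and 6.10 in Hsp72Tg against 5.40 and 5.85 in WT and a difference of 0.63 (SE 0.21, 95% interval 0.15 to 1.10, adjusted p = 1.0). Without WT sham 1 this difference was 0.40, and with the dimmer probe set of Col26a1 it was 0.0093. It was the only member with an unadjusted p under 0.05 (2.5%, against 1.56% of all genes). Col6a4 followed with 6.43 and 6.10 in Hsp72Tg against 6.56 and 6.63 in WT, a difference of -0.33 (95% interval -0.70 to 0.03). That difference was -0.50 without Hsp72Tg sham 1, -0.17 without Hsp72Tg sham 2 and -0.02 with the other probe set of Col6a4. After MCAO Col6a4 had 6.32, 6.15 and 6.40 in WT and 6.26, 5.88 and 6.24 in Hsp72Tg, which overlap.

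Both calls over the 2 genotypes depended on single arrays. The estimate of Col16a1 stayed between 0.47 and 0.55 with each array left out, and its limma adjusted p lay between 0.00301 and 0.114. Col16a1 no longer passed without WT sham 1 (0.114), WT sham 2 (0.0933), WT MCAO 1 (0.0625), WT MCAO 2 (0.0665), WT MCAO 3 (0.0853), Hsp72Tg sham 1 (0.0940) or Hsp72Tg sham 2 (0.0531). Col5a3 kept an estimate between 0.75 and 0.94 and no longer passed without WT sham 1 (0.107), WT sham 2 (0.128), WT MCAO 3 (0.0913), Hsp72Tg sham 1 (0.126) or Hsp72Tg sham 2 (0.0565). The calls over all genes fell as well, from 266 genes with all arrays to 17 without WT sham 1, 23 without WT sham 2, 27, 40 and 15 without WT MCAO 1, 2 and 3, and 11 and 93 without Hsp72Tg sham 1 and 2. Where a group was left with 1 array, that array was taken to vary like the others. Each estimate kept its sign with any array left out for 33 of the 40 members.

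Without Hsp72Tg MCAO 1, 5 members passed, against 12.4% of all genes. These were Col16a1 (0.53, adjusted p = 0.00301), Col5a3 (0.86, adjusted p = 0.00704), Col3a1 (1.03, adjusted p = 0.00761), Col18a1 (0.47, adjusted p = 0.0402) and Col19a1, which fell by 0.44 (adjusted p = 0.0475). Without both Hsp72Tg MCAO 1 and WT sham 1, 5 members also passed, against 6.47% of all genes. These were Col16a1 (0.52, adjusted p = 0.0188), Col5a3 (0.92, adjusted p = 0.0186), Col18a1 (0.64, adjusted p = 0.00592), Col3a1 (0.89, adjusted p = 0.0338) and Col26a1, which fell by 0.54 (adjusted p = 0.0449).

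**Figure D5:**
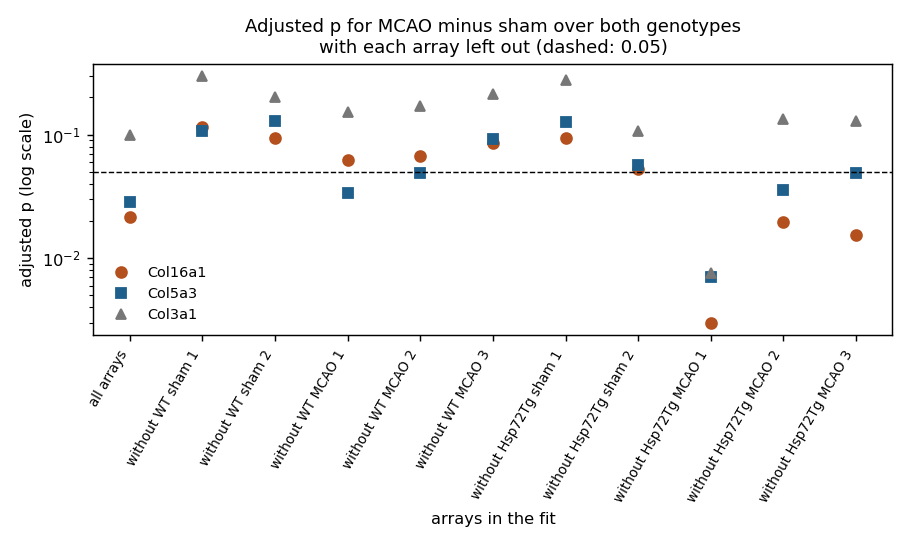
Adjusted p from limma (vertical axis, log scale) for the change from sham to MCAO over both genotypes of Col16a1, Col5a3 and Col3a1, with all arrays and with each array left out in turn (horizontal axis); the dashed line marks 0.05. Without Hsp72Tg MCAO 1 all 3 genes lie below the line, and without any one of the 4 sham arrays all 3 lie above it.

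The genes that make, bind and break down collagen were read on the same arrays. Over all genes, 42.5% had a change above 0 over both genotypes and 1.46% passed, the shares to set beside each list below. Of 27 measured genes for collagen making, 21 had a change above 0 over both genotypes, with a median of 0.15, and 1 passed. This was Serpinh1, the collagen chaperone Hsp47, which rose by 0.90 (SE 0.17, adjusted p = 0.0428). Its log2 values were 7.36 and 7.52 in WT sham, 8.35, 8.66 and 8.72 in WT MCAO, 7.81 and 7.62 in Hsp72Tg sham and 8.16, 8.03 and 8.98 in Hsp72Tg MCAO, without overlap. The cross-linking enzymes Lox and Loxl1 had 0.87 (adjusted p = 0.0874) and 0.75 (adjusted p = 0.0900). Adamts3 had the largest downward estimate of this list, -0.56, and did not pass. Its means were 8.23 in WT sham, 7.68 in WT MCAO, 8.29 in Hsp72Tg sham and 7.71 in Hsp72Tg MCAO. Of 10 collagen receptors, 8 lay above 0 with a median of 0.18 and none passed. The largest estimates were 0.42 for Itgb1, the beta chain of the collagen-binding integrins (adjusted p = 0.0581), and 0.39 for Adgrg1, a receptor for type III collagen in the brain (adjusted p = 0.0586).

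The 12 genes listed for collagen breakdown include the inhibitors Timp1, Timp2 and Timp3, so their counts give no direction for breakdown. Of these genes, 10 lay above 0 with a median of 0.23, and 2 rose. Timp1, an inhibitor of matrix metalloproteinases, rose by 2.93 (SE 0.39, adjusted p = 0.0140), and Mmp14, a membrane-bound collagenase, by 0.83 (SE 0.13, adjusted p = 0.0251). The 8 small proteoglycans that bind collagen fibrils had a median of -0.20 with 3 above 0, and Ogn fell by 0.65 (SE 0.11, adjusted p = 0.0327). The values of Ogn were 7.85 and 7.85 in WT sham, 7.07, 7.36 and 7.35 in WT MCAO, 8.07 and 8.07 in Hsp72Tg sham and 7.57, 7.47 and 7.01 in Hsp72Tg MCAO. In the same list Fmod had -1.18 (adjusted p = 0.145) and Dcn 0.76 (adjusted p = 0.193).

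Markers of the cells that can make collagen moved in part with surgery. The lists share some genes. Pdgfra is in the fibroblast and oligodendrocyte precursor lists, Cspg4 in the mural and precursor lists, and Fmod in the fibroblast and proteoglycan lists. Of 14 fibroblast markers, 3 lay above 0 with a median of -0.19, and 2 rose, Aldh1a2 by 1.21 (SE 0.23, adjusted p = 0.0436) and Mgp by 0.65 (SE 0.13, adjusted p = 0.0428). Over all genes 42.5% lay above 0 and 1.46% passed. Fmod had the largest downward estimate of the fibroblast list, -1.18, and did not pass. Slc47a1 in that list had means of 6.25 in WT sham, 6.04 in WT MCAO, 6.56 in Hsp72Tg sham and 5.56 in Hsp72Tg MCAO. The mean log2 level of the list was 7.98 in both WT sham arrays, 7.79 to 8.06 in WT MCAO, 7.91 to 7.93 in Hsp72Tg sham and 7.58 to 7.88 in Hsp72Tg MCAO. Of 9 endothelial markers, 6 lay above 0 with a median of 0.60, and Pecam1 rose by 1.0 (SE 0.18, adjusted p = 0.0350) and Cldn5 by 0.65 (SE 0.12, adjusted p = 0.0360). The transporters Slco1a4 and Abcb1a in that list had -0.79 (adjusted p = 0.194) and -0.39 (adjusted p = 0.236). The mean level of this list was 7.90 to 8.02 in WT sham, 8.32 to 8.55 in WT MCAO, 8.0 to 8.13 in Hsp72Tg sham and 7.97 to 8.67 in Hsp72Tg MCAO. Of 11 mural cell markers, 6 lay above 0 with a median of 0.03 and none passed; Kcnj8 had 0.68 (adjusted p = 0.0580) and Pdgfrb 0.56 (adjusted p = 0.113). The part of these cell types in the changes of Col16a1 and Col5a3 was not tested.

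Markers of other cells were read in the same way. Gfap in the astrocyte list (5 of 7 above 0) rose by 1.60 (adjusted p = 0.0113), and Cd68 in the microglia and macrophage list (5 of 7 above 0) by 1.35 (adjusted p = 0.0131). P2ry12, a receptor of resting microglia in the latter list, had a larger estimate of -1.67 (SE 0.37) that missed the threshold (adjusted p = 0.0586). No gene passed among 8 neuron markers (median -0.14), 6 oligodendrocyte precursor markers (-0.10), 9 choroid plexus markers (-0.05) or 8 cerebellar granule cell markers (-0.33). The largest estimates were -0.38 for Tubb3 and -0.30 for Nefl among neuron markers, -0.74 for Gpr17 and 0.35 for Sox10 among precursor markers, and -0.65 for Kcne2 among choroid plexus markers, with Folr1 at 0.15. In the cerebellar list Gabra6 had -1.27 (adjusted p = 0.410), and En2 had -0.62 (adjusted p = 0.171). Without WT sham 1, Gabra6 had 0.05 and the median of the cerebellar list was -0.01. None of the markers measured in these 9 cell type lists lay below the lower quartile in every array.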

How the data were processed

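Per the submitters' processing notes the authors made the deposited log2 values with RMA, which corrects background, normalizes between arrays and summarizes probe sets; the RMA version and settings used are not given in the sources. Scanner files were not used, and the number of arrays limits the precision. Of 45101 probe sets, 64 controls were left out; 34945 had 1 gene symbol, 932 several and 9160 none listed. Each gene was read through its single-symbol probe set with the highest mean. limma 3.58.1 in R 4.3.3 fitted 4 group means to all 10 arrays (6 residual degrees of freedom, prior 3.72), with two-sided Benjamini-Hochberg adjusted p over 18193 genes and a threshold of 0.05. The fit was tested on simulated data with independent noise and no outlying array. That test therefore does not cover data with arrays that stand apart, as here.

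The members and gene lists were chosen with earlier results of these data known. Full values are given for members that passed, the 3 largest changes per direction over both genotypes, the 2 smallest p in each genotype comparison and the brightest member. From other lists, genes that passed or else the 2 largest changes are named by rule. Lox, Loxl1, Adamts3, Fmod, Dcn, Slc47a1, Slco1a4, Abcb1a and P2ry12 were added after their values were seen, as were values for further members. Collagen genes Col6a6, Col21a1 and Col28a1 were not analysed here. Numbers in the titles were not used to pair arrays in the main fit. Deviations of same-numbered arrays correlated at -0.156 to 0.249, and those of differently numbered arrays at -0.229 to 0.201. In groups of 2 arrays the deviations mirror each other, so these values cannot show whether the numbers pair arrays.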

Additional observations from a re-analysis of the deposited data

How the results depend on the processing

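For MCAO over both genotypes, where 2 members passed, 0 passed with the replicate block (smallest adjusted p = 0.0965; 19 of all 18193 genes passed) and 0 at an adjusted p under 0.01 (15 of all genes); 5 passed without WT sham 1 and Hsp72Tg MCAO 1, and 0 to 5 with each array left out. In WT, where 0 passed, 3 passed with only the arrays compared (Col11a2, Col16a1 and Col3a1), 4 with limma's arrayWeights (these and Col5a3) and 0 to 1 with an array left out. In Hsp72Tg, where 0 passed, 2 passed without both doubted arrays (Col18a1 and Col26a1) and 0 to 2 with each array left out. The 3 comparisons between genotypes had 0 members called under every alternative run. Col26a1 changed sign over both genotypes with its other probe set (0.066), and Col6a1, at 0.08 with all arrays, without WT MCAO 2 (-0.039; range with each array left out -0.039 to 0.19). The cause of these shifts was not tested. Trend and robust variance, quantile normalization, median centring, mean probe sets and the filter on dim genes kept the count over both genotypes within 1.5 times, as did arrayWeights, with 3 members (Col3a1 at an adjusted p of 0.0358; 1116 of all genes). Averaging probe sets lowered the estimates of Col5a3 from 0.87 to 0.47 (adjusted p = 0.0445) and of Col3a1 from 0.87 to 0.47 (adjusted p = 0.135). A fit with only the arrays compared needs all 4 groups for the comparison over both genotypes and for the difference of changes, so it was not run there.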
